A study of Mus musculus with 4 samples.

Results

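Insulin-like growth factor (IGF) signalling was described through 9 genes, Igf1, Igf1r, Igf2r, Igfbp2, Igfbp3, Igfbp4, Igfbp5, Igfbp6 and Igfbp7, out of 32286 features of the count matrix. The genes were taken by symbol, and their levels were read in cell classes defined by other marker genes. The cells were cardiac interstitial cells, the cells of the heart other than its muscle cells, from mice sampled 1 month after stroke or a control condition. There were 2 control and 2 stroke samples. All 4 samples carried the Ccr2creERT2-Ai14 genotype, in which an inducible Cre recombinase driven from the Ccr2 gene, a gene of monocyte-lineage cells, can switch on a red fluorescent reporter. The control procedure, the age of the mice and whether the recombinase was induced are not given in the sources used here. Per the labels, cells were released by 30 min of enzymatic digestion. Heart muscle cells were removed on a strainer, red cells by lysis and dead cells by magnetic beads, and live nucleated cells were sorted, so class sizes depend on recovery.

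The 4 samples were deposited as 1 matrix whose barcodes carry library numbers 1 to 4, and no label ties a library number to a sample. No comparison of stroke with control was therefore made. The libraries are described one by one, and their range is a range over 4 libraries of unknown group, not a replicate error. Each library held between 9168 and 10473 barcodes and between 31955157 and 45834980 UMIs (unique molecular identifiers, each standing for 1 captured RNA molecule). After filtering, 37594 cells were kept, with a median of 2583 to 3487 UMIs per cell by library. Between 17 and 35 barcodes were shared by any pair of libraries. The markers gave 15 classes of at least 50 cells, named X-like because they rest on markers alone. The largest were endothelial-like (22647 cells), fibroblast-like (7975), B cell-like (1535) and macrophage-like (1258). Cardiomyocyte-like cells numbered 33 and dendritic-like cells 48, too few to be compared, and 993 cells (2.64%) stayed unnamed. In 14 of the 15 classes every marker of the list was at least 2-fold above all other cells together, and in the monocyte-like class 6 of 7 were.

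IGF1 and IGF2 are secreted growth factors that act through the IGF1 receptor, a receptor tyrosine kinase which passes the signal to IRS adaptors and the PI3 kinase and AKT branch. The IGF2 receptor, also the mannose 6-phosphate receptor, has no kinase and carries IGF2 to the lysosome. The IGF binding proteins hold the ligands in extracellular fluid and matrix and control how much reaches the receptor, and IGFBP7 is a family member with weak affinity for IGFs. In the heart, the pathway is known for its part in growth and survival of muscle cells and in tissue repair.

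In the mm10 (GRCm38) build, with GENCODE gene models, the ligand gene Igf1 lies at chr10:87858265-87937042 on the plus strand. Igf1r lies at chr7:67952827-68233668 on the plus strand and Igf2r at chr17:12682406-12769664 on the minus strand. Among the binding proteins, Igfbp2 (chr1:72824503-72852474, plus) and Igfbp5 (chr1:72857932-72874884, minus) are neighbours. Igfbp3 lies at chr11:7206086-7213923 on the minus strand, Igfbp4 at chr11:99041244-99054392 on the plus strand, Igfbp6 at chr15:102144362-102149511 on the plus strand and Igfbp7 at chr5:77349240-77408041 on the minus strand. All 9 are protein-coding genes. Igf2r, Igf1 and Igfbp7 overlap genes on the opposite strand, and the sources used here do not give whether counting used strand.

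Igfbp5 and Igfbp6 had their highest level in the same class, the epicardial or mesothelial-like cells, in each of the 4 libraries, so the sequences just upstream of their starts are shown. They are the 250 bases before the RefSeq start (GRCm38.p6), at chr1:72874866-72875115 on the minus strand for Igfbp5 and chr15:102143936-102144185 on the plus strand for Igfbp6, both written 5′ to 3′. The last bases of the Igfbp5 window reach into the GENCODE gene model. The Igfbp6 window ends at 102144185, short of the GENCODE start at 102144362, so the 2 windows are not placed alike against these models. Capitals mark matches on either strand to 4 short motifs: the TATA box core TATAAA, the GC box GGGCGG, the CCAAT box, and CATTCC, a core bound by TEAD factors. Each was searched as written and as its reverse complement, and only exact matches are marked, so similar stretches stay unmarked. No 2 motifs overlap in either sequence.
Igfbp5: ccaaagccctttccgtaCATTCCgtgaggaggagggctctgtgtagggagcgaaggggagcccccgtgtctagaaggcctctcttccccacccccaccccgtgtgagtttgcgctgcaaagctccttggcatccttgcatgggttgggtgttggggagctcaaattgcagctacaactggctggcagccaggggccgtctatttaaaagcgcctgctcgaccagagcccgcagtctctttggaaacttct
Igfbp6: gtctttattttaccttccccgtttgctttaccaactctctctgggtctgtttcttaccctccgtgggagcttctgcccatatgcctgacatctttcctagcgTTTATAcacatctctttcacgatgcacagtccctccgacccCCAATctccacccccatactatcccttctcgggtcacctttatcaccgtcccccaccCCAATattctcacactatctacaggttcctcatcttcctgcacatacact

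The marked letters differed between the pair. The Igfbp5 window held 1 match to CATTCC, a motif that 12.6% of 32851 RefSeq windows of this length hold. The Igfbp6 window held 1 match to TATAAA (12.4% of windows) and 2 to CCAAT (33.8% of windows). Neither window held GGGCGG, which 32.7% of windows hold, and those of Igf1, Igfbp3 and Igfbp4 held none either. The windows of Igf1r, Igf2r and Igfbp7 held 2, 3 and 4 matches, and the 2 windows of Igfbp2 held 3 and 0. The windows of Igfbp5 and Igfbp6 had 10 and 7 CpG dinucleotides and a GC content of 58.8% and 49.6%. That of Igfbp7 had 26 CpG and 74.0%, and that of Igf1 had 5 CpG and 52.8%. A match is a description of the letters only.

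Levels are given as CPM, the UMIs of a gene summed over the cells of a class per 1000000 UMIs of that class. Bracketed intervals are 95% exact Poisson intervals for a level, exact conditional binomial intervals for a ratio of levels and exact binomial (Clopper-Pearson) intervals for a share of cells. They cover counting error only. Of the 9 genes, 8 had their highest level in a class that is not an immune class, against 57.4% of the 20310 genes with at least 10 UMIs, and Igf1r, highest in neutrophil-like cells, was the exception. Among classes with at least 20 cells in a library, the same class was highest in each of the 4 libraries for 5 of 9 (Igf1r, Igf2r, Igfbp4, Igfbp5 and Igfbp6). This compares with 18.7% of all genes. Those 5 had 18390 to 60440 UMIs, while the share over all genes includes genes with as few as 10, and the part of abundance was not tested. The highest class stood at least 2-fold above the next for 5 of 9 (Igf1r, Igf2r, Igfbp2, Igfbp5 and Igfbp6), against 28.9% of all genes. Igfbp2 counts here on 11 UMIs against 1, a ratio of 4.975 (0.723 to 214.1), and without library 2 its log2 ratio of 0.84 is under 2-fold. Igf1r also came under 2-fold, at log2 ratios of 0.91 with the stricter cell filter, 0.96 at clustering resolution 2 and 0.94 without library 1, and Igf2r with TMM factors, a scaling estimated from all genes, at 0.88. The ratios of Igfbp5 and Igfbp6 stayed over 2-fold in all 11 alternative analyses. With 9 genes these counts are a description.

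**Figure D1:**
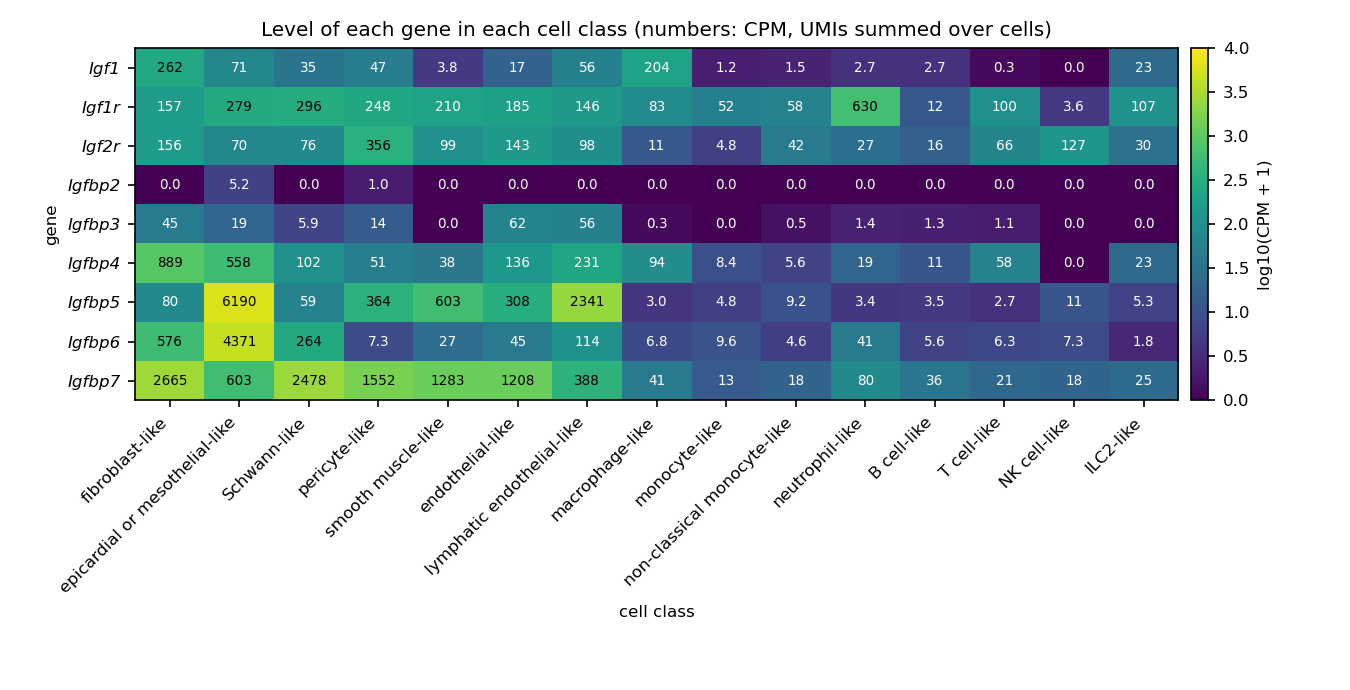
Level of the 9 genes (rows) in 15 marker-defined cell classes (columns), with the colour as log10(CPM + 1) and the CPM printed in each cell. Igfbp5 (6190 CPM) and Igfbp6 (4371 CPM) peak in the epicardial or mesothelial-like column, Igf1r (630.2 CPM) in the neutrophil-like column, and Igfbp2 is near 0 in all classes.

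The ligand Igf1 was found mainly in fibroblast-like and macrophage-like cells. In fibroblast-like cells its level was 293, 248, 266 and 221 CPM in libraries 1 to 4, and 262 CPM (258 to 267) over all cells. In macrophage-like cells it was 174, 153, 276 and 102 CPM, and 204 CPM (194 to 214) over all cells. The 2 ranges overlapped: fibroblast-like cells were higher in libraries 1, 2 and 4, and macrophage-like cells in library 3. Over all cells the ratio of fibroblast-like to macrophage-like cells was 1.29 (1.22 to 1.36). Library 3 also held the most macrophage-like cells (625 of 1258) and the fewest fibroblast-like cells (631 of 7975), and the part of this makeup in the order was not tested. Thinned to 1000 UMIs per cell, 20.6% of fibroblast-like and 18.3% of macrophage-like cells had an Igf1 UMI, against 60.0% and 47.8% before thinning, at median depths of 6368 and 5565.5 UMIs. In T cell-like cells, with a median of 4325 UMIs, the share was 0.123%, 1 of 815 cells.

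Fibroblast-like cells held 76.2% of all Igf1 UMIs with 21.2% of the cells, and macrophage-like cells 9.03% with 3.35%. Endothelial-like cells, 60.2% of all cells, held 5.74%. Below the 2 leading classes came epicardial or mesothelial-like cells at 71.1 CPM (60.2 to 83.4), lymphatic endothelial-like cells at 56.3 CPM (38.0 to 80.4) and pericyte-like cells at 46.9 CPM (34.2 to 62.7), neighbours whose intervals overlap. The epicardial or mesothelial-like value rested on library 2, at 142 CPM, against 36.9, 29.8 and 37.8 CPM in libraries 1, 3 and 4. Monocyte-like cells had 1 UMI in 112 cells, non-classical monocyte-like cells 3 in 401, and NK cell-like cells none in 67, which allows up to 10.9 CPM. The 3 genes whose profile over the 15 classes was most like that of Igf1 were Tmed3 (Pearson r of log2(CPM + 10) 0.916), Ecm1 (0.884) and Tmem159 (0.879). These correlations run over classes that share the same 4 libraries.

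Within the fibroblast-like class, Igf1 differed several-fold between types. The type marked by Mfap4 and Osr1 (1642 cells) had 531, 510, 750 and 457 CPM in libraries 1 to 4, and the Pi16 type (1870 cells), marked by the fibroblast progenitor genes Pi16 and Dpp4 although 1 of its 2 sub-clusters was led by Postn, had 152, 138, 155 and 136 CPM. The groups did not overlap, and the ratio over all cells was 3.61 (3.44 to 3.80). With a stricter cell filter the log2 ratio went from 1.85 to 2.51. The Postn type (212 cells), marked by the matrix genes Postn and Cthrc1, had 668 CPM (624 to 713), from 353 to 769 CPM over the 3 libraries with at least 20 of its cells. The Cxcl14 and Smoc2 type, the most frequent, stood between at 217 CPM. The sub-cluster with the highest level, 758 CPM, was part of the Mfap4 and Osr1 type and was led by Nkain2 and Il1rapl1 (243 cells).

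Within the macrophage-like class, Igf1 was high in the resident-like and MHC-II-high types. The resident-like type, marked by Lyve1, Timd4 and Folr2, had 270, 384, 329 and 226 CPM in libraries 1 to 4. The MHC-II-high type, marked by H2-Aa and Cd74 and led by the heart muscle gene Myl2, had 220, 209, 269 and 135 CPM. The resident-like type was the higher of the pair in 4 of 4 libraries, by a ratio of 1.35 (1.19 to 1.53), although the ranges overlap. Its Lyve1-led sub-cluster (338 cells) reached 378.5 CPM. Its other sub-cluster (275 cells), led by the chemokine genes Ccl4 and Ccl3, had 250.5 CPM, near the 239.1 CPM of the MHC-II-high type. That sub-cluster was mixed, with 4 of the MHC-II-high markers raised next to 5 resident markers. Igf1 was lower in a sub-cluster led by Spp1 and Cd209a (47.6 CPM, 37.4 to 59.8), which also had the antigen-presentation genes H2-Ab1, H2-Aa and Cd74 among its leading genes, and in the type with serous-cavity markers (45.7 CPM, 35.2 to 58.2). The latter had no cell in library 1, 82 in library 2, 3 in library 3 and 35 in library 4.

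In endothelial-like cells, Igf1 was found mostly in the Kirrel3-led type, at 104, 80.1, 91.2 and 102 CPM by library, against 5.08 to 9.44 CPM in the capillary Car4 type. This type is 1 sub-cluster of 2073 cells led by Kirrel3, Prss23 and Samd5, and it carried markers of both capillary and venous cells. Nr2f2, a transcription factor gene of veins, had 203.2 CPM there. Aplnr, a capillary receptor gene, had 220.6 CPM in it, inside the range of 51.7 to 229.1 CPM over the sub-clusters of the capillary Car4 type.

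The signalling receptor Igf1r was measured in every class, with its highest level in neutrophil-like cells. These 435 cells had 561, 646, 689 and 588 CPM in libraries 1 to 4, 630.2 CPM (590 to 672) over all, and 74.0% of them had an Igf1r UMI at a median depth of 2995 UMIs. The next class, Schwann-like cells, had 268 and 232 CPM in libraries 1 and 4, the 2 libraries with at least 20 such cells. In each library the neutrophil-like value lay above those of all other classes with at least 20 cells there. Libraries 2 and 3 held 18 and 8 Schwann-like cells, with 23 and 8 Igf1r UMIs, and were not compared for that class. The ratio to Schwann-like cells over all cells was 2.13 (1.73 to 2.64). Neutrophil-like cells also have a distinct RNA composition: the TMM factor was 0.581 for them and 1.21 for Schwann-like cells, and with it the log2 ratio went from 1.09 to 2.15. The share of neutrophil-like cells with an Igf1r UMI was 42.5% after thinning to 1000 UMIs, against 0.937% of B cell-like cells.

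After neutrophil-like cells the order of Igf1r was flat. Schwann-like (296 CPM, 241 to 360), epicardial or mesothelial-like (279 CPM, 257 to 303), pericyte-like (248 CPM, 217 to 281) and smooth muscle-like cells (210.0 CPM, 158 to 273) had intervals that overlap from each to the next. Endothelial-like cells had 185 CPM (174 to 202 by library) and fibroblast-like cells 157 CPM (149 to 164 by library). Lower levels were found in macrophage-like (83.0 CPM), monocyte-like (51.5 CPM) and B cell-like cells (11.5 CPM), and the lowest in NK cell-like cells, with 1 UMI in 67 cells. Between endothelial-like types the level ran only from 145 CPM in the Kirrel3-led type to 210 CPM in the venous-like type. The most similar genes over classes were Atp11a (r 0.872), Asb7 (0.863) and Ergic1 (0.825).

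T cell-like cells were not uniform for Igf1r. A sub-cluster of 71 cells led by Cd163l1, Il23r and Trdc, the last encoding the constant region of the T cell receptor delta chain, had 588 CPM (508 to 676), and 83.1% of its cells had an Igf1r UMI. The other 5 T cell-like sub-clusters had between 14.3 and 76.2 CPM. The UMIs of the small sub-cluster came from all libraries, 41, 87, 40 and 29 in libraries 1 to 4, from 11, 29, 15 and 16 cells. It held 197 of the 368 Igf1r UMIs of the T cell-like class.

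**Figure D2:**
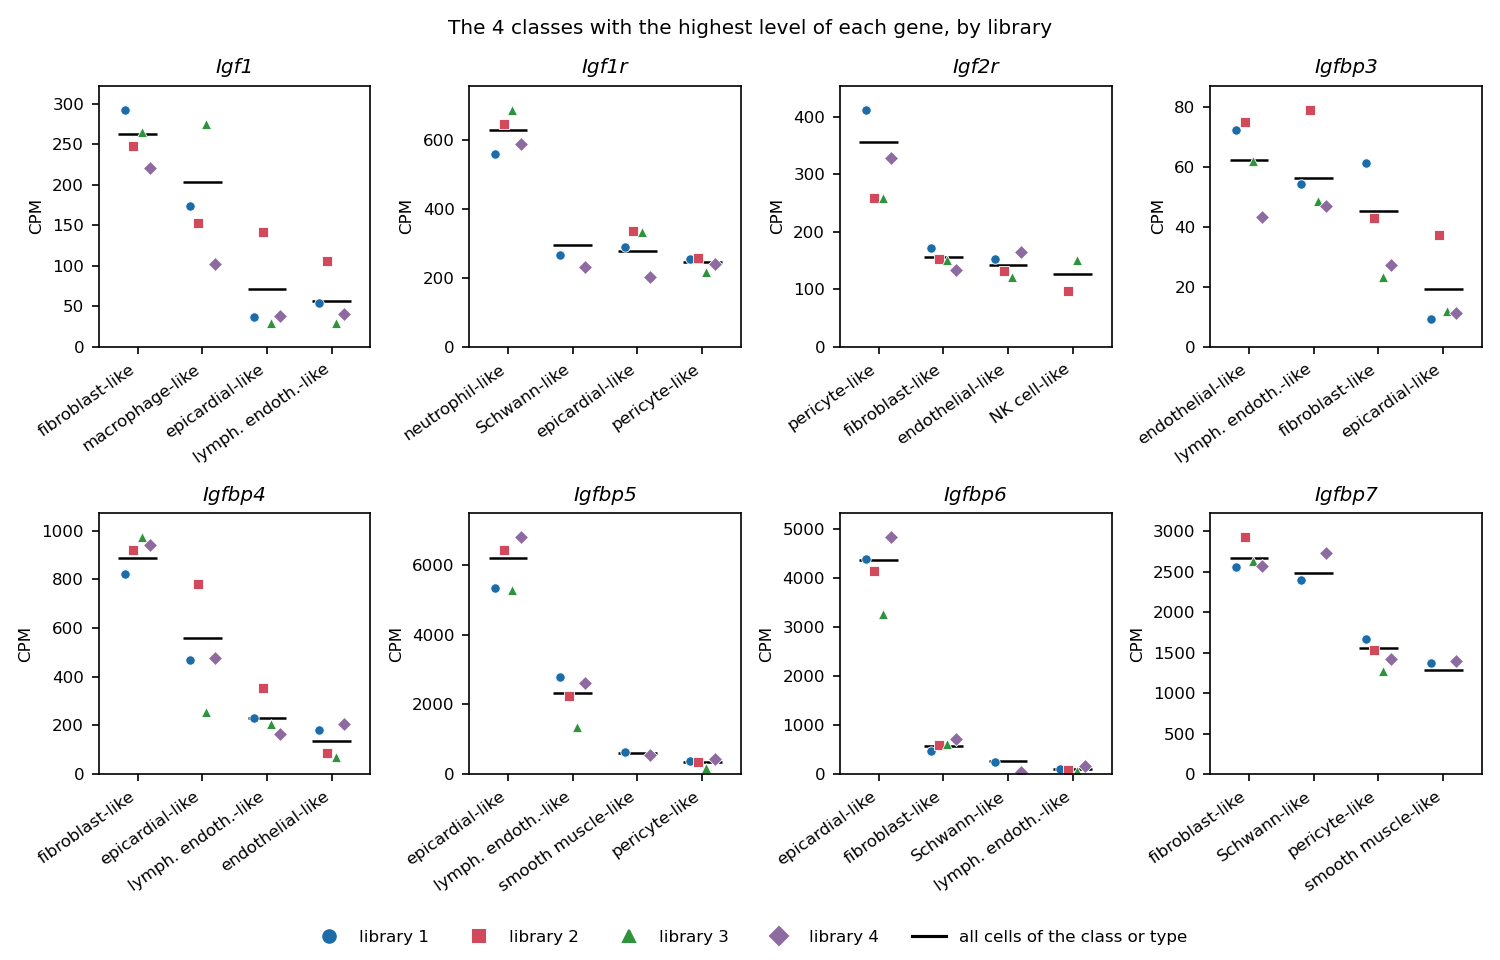
The 4 classes with the highest level of each gene, in CPM (vertical axis, from 0), with 1 marker per library that has at least 20 cells of the class and a line at the value over all cells. Igf1r in neutrophil-like cells (561 to 689 CPM) and Igfbp6 in epicardial or mesothelial-like cells (3264 to 4843 CPM) lie apart from the other classes, while the fibroblast-like and macrophage-like values of Igf1 overlap.

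Igf2r, the receptor that clears IGF2, was highest in pericyte-like cells, the contractile cells of capillary walls. Its level there was 412, 258, 259 and 327 CPM in libraries 1 to 4, and in fibroblast-like cells 171, 153, 151 and 134 CPM. The ranges did not overlap, and the ratio over all cells was 2.28 (2.04 to 2.54). Endothelial-like cells had 143 CPM and NK cell-like cells 127 CPM (88.5 to 177). Within endothelial-like cells the endocardial-like type, marked by Npr3, had 299, 277, 328 and 307 CPM, against 104, 102, 98.9 and 108 CPM in the capillary Car4 type. That is a ratio of 2.94 (2.80 to 3.10). Resident-like macrophages had 9 Igf2r UMIs in 613 cells, 2.54 CPM (1.16 to 4.82), while serous-cavity-type macrophages had 38.6 CPM (29.1 to 50.3). Of the 120 serous-cavity-type cells, 82 came from library 2. In this type 4 fibroblast markers were also raised, and the part of fibroblast RNA in its value was not tested.

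The Igf2r values carry a limit of counting. The long non-coding RNA Airn is transcribed from the opposite strand of the Igf2r locus and had 88864 UMIs, against 18390 for Igf2r. Airn was also highest in pericyte-like cells, at 1425 CPM, and lowest in monocyte-like cells, at 14.4 CPM. Of all genes compared it had the profile most like that of Igf2r (r 0.948 over 15 classes), ahead of Gsk3b (0.895) and Golga3 (0.879). Its UMIs per Igf2r UMI ranged from 1.49 in NK cell-like cells to 6.87 in epicardial or mesothelial-like cells. Airn and Igf2r were counted as separate features. Whether some reads of Airn were counted for Igf2r was not tested, because the strand setting was not known.

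**Figure D3:**
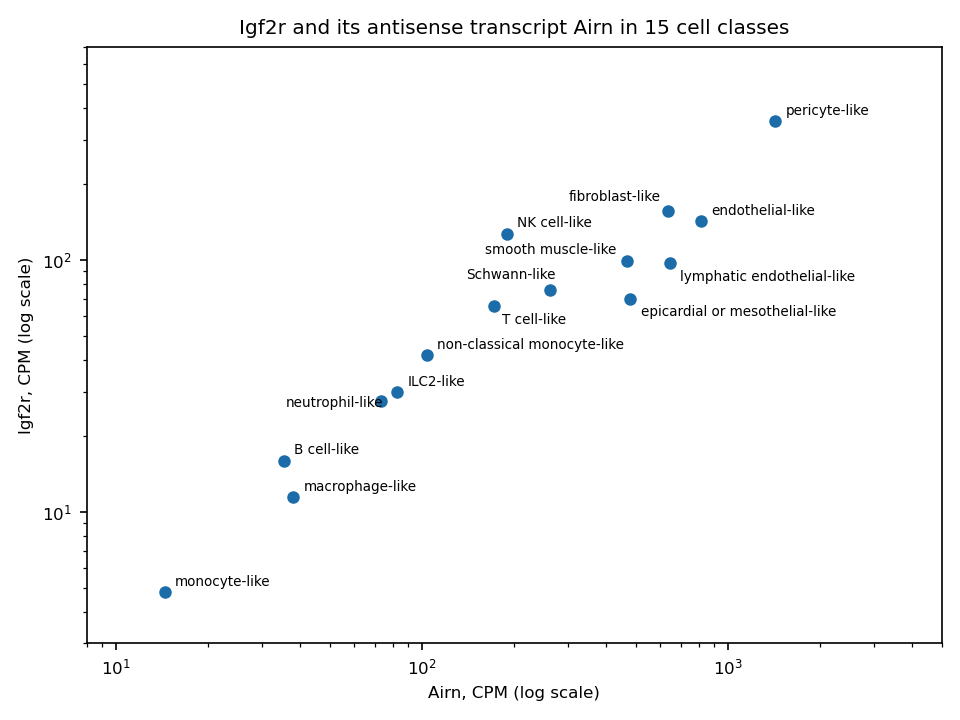
Igf2r (vertical axis) against its antisense transcript Airn (horizontal axis) in the 15 cell classes, both in CPM on log axes, with 1 point per class. Both genes run from monocyte-like cells (4.79 and 14.4 CPM) to pericyte-like cells (356 and 1425 CPM).

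The binding proteins, summed over Igfbp2 to Igfbp7, were concentrated in the epicardial or mesothelial-like, stromal and vascular classes. The sum was 11750 CPM in epicardial or mesothelial-like cells, from 9322 to 12790 CPM by library, where every cell had at least 1 such UMI. It was 4255 CPM in fibroblast-like, 3131 CPM in lymphatic endothelial-like, 2909 CPM in Schwann-like and 1759 CPM in endothelial-like cells. In the 8 immune classes it ran from 36.0 CPM in monocyte-like to 145 CPM in macrophage-like cells. B cell-like cells ranged from 15.5 to 150 CPM by library, and neutrophil-like cells from 65.8 to 382 CPM. How much of these low immune values is free RNA from other cells was not tested.

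Igfbp2, a binding protein of fetal tissue and liver, was close to undetected, with 14 UMIs in all cells. Of these, 11 were in epicardial or mesothelial-like cells, 5.18 CPM (2.59 to 9.27), in libraries 1 and 2 only. Fibroblast-like cells had none in 7975 cells, which allows up to 0.0580 CPM.

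Igfbp3, the main carrier of IGFs in blood, was found in endothelial-like and fibroblast-like cells. In endothelial-like cells it was 72.6, 75.2, 62.2 and 43.5 CPM in libraries 1 to 4, and in lymphatic endothelial-like cells 54.4, 79.2, 48.8 and 47.1 CPM. These values overlap, the ratio of 1.11 (0.774 to 1.64) includes no difference, and the order turned in 3 of 11 alternative analyses. Fibroblast-like cells had 61.5, 42.9, 23.2 and 27.2 CPM. Both cell classes were heterogeneous. Among endothelial-like types the arterial-like type had the highest level, 176, 220, 184 and 88.5 CPM, and the capillary Car4 type had 88.2, 86.5, 57.9 and 60.2 CPM. The ratio over all cells was 2.27 (2.10 to 2.45), and the arterial-like type was higher in 4 of 4 libraries. The endocardial-like type had 7.25 CPM and the venous-like type 1 UMI in 160 cells.

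Among fibroblast-like cells, Igfbp3 marked 1 sub-cluster of the Mfap4 and Osr1 type, 424 cells led by Igfbp3 itself with Sntg1, Fgl2 and Cytl1. These cells had 713, 460.0, 481 and 522 CPM in libraries 1 to 4, 572 CPM in all, and 59.4% of them had an Igfbp3 UMI. Igfbp3 was left out of the clustering, so its values did not directly set which cells formed this sub-cluster. Its place among the leading genes does rest on its own values, and the sub-cluster was picked out here for that place. The other fibroblast-like sub-clusters had between 3.39 and 89.3 CPM. The same 424 cells also had high Igfbp4 (1421 CPM) and the highest Igfbp7 of all sub-clusters (3991 CPM). In fibroblast-like cells Igfbp3 and Igfbp6 were found together in 3.57% of cells, less than the 5.49% that their separate shares multiply to. Over classes, the genes most like Igfbp3 were Tek (r 0.959), the endothelial receptor of angiopoietins, Arhgef28 (0.950) and Fxyd6 (0.930).

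Igfbp4, a binding protein that PAPP-A cleaves, was highest in fibroblast-like cells. They had 822, 922, 974 and 941 CPM in libraries 1 to 4, and epicardial or mesothelial-like cells, the next class, had 470, 783, 256 and 477 CPM. The ranges did not overlap, and the ratio was 1.592 (1.502 to 1.687). An Igfbp4 UMI was found in 92.7% of fibroblast-like cells and in 3.00% of B cell-like cells, whose median depth was 4012 UMIs. All but 1 fibroblast-like type had 680.1 CPM or more, and the Postn type had 310 CPM (268 to 405 by library). Igf1 and Igfbp4 were found together in 57.0% of fibroblast-like cells, next to 55.6% from their separate shares. Among the similar genes over classes were Myh10 (r 0.925) and Cyb5a (0.919).

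**Figure D4:**
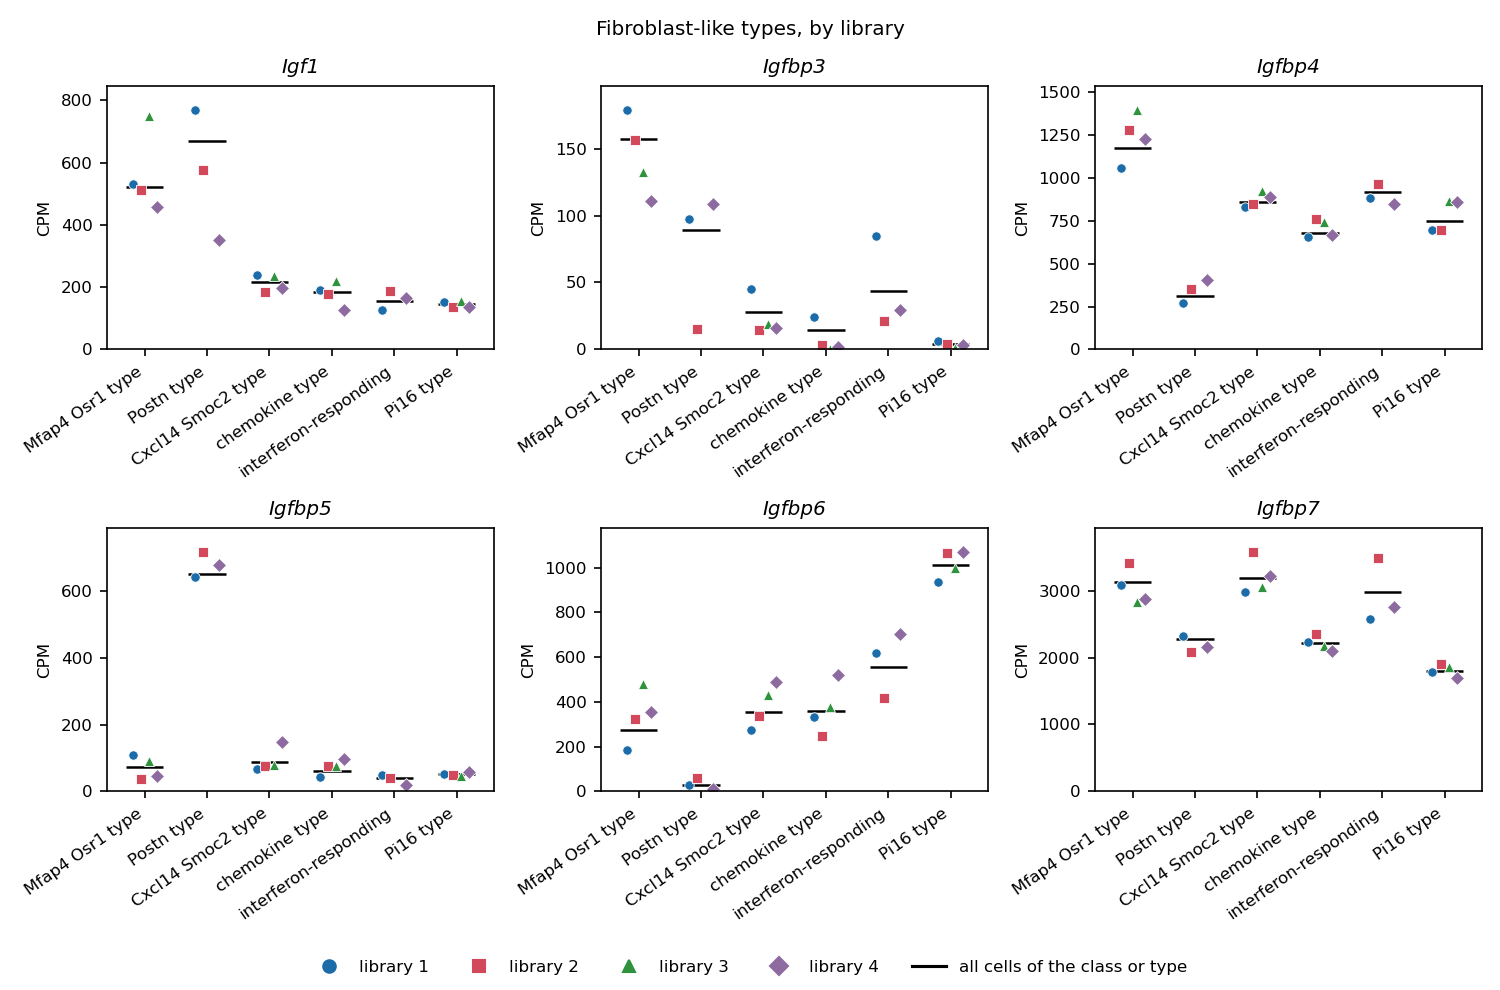
Levels in CPM (vertical axes, from 0) of Igf1 and 5 binding proteins in 6 fibroblast-like types, with 1 marker per library and a line at the value over all cells of the type. Igf1 and Igfbp3 are highest in the Mfap4 Osr1 and Postn types, Igfbp5 in the Postn type (650.3 CPM), and Igfbp6 in the Pi16 type (1012 CPM).

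In endothelial-like cells Igfbp4 followed the vessel segment. The endocardial-like type had 521, 428, 512 and 626 CPM in libraries 1 to 4, the venous-like type 367 CPM and the arterial-like type 115 CPM. The capillary Car4 type had 25.8, 12.97, 6.09 and 15.9 CPM. The ratio of endocardial-like to capillary Car4 cells was 38.8 (34.9 to 43.2). Immune classes had a lower and structured level. Resident-like macrophages had 143 CPM, against 75.0 CPM in the MHC-II-high type. CD4-like T cells had 136 CPM (112 to 163), against 70.0 CPM in the CD8-like sub-cluster led by Sidt1, Fam241a and Cd8b1. A T cell-like sub-cluster led by Fcer1g and the NK cell receptor genes Klra5 and Ncr1 had 2.88 CPM, and one led by Ccl1 and Gzma, with markers of both CD4 and CD8 cells, had 13.5 CPM.

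Igfbp5, the most conserved of the binding proteins and one that attaches to matrix, had its highest level in epicardial or mesothelial-like cells, the covering layer of the heart and its cavity. They had 5353, 6434, 5271 and 6802 CPM in libraries 1 to 4, and 99.4% of them had an Igfbp5 UMI, against 1.23% of T cell-like cells. Lymphatic endothelial-like cells came next with 2776, 2244, 1368 and 2618 CPM. The ranges lay far apart, and the ratio was 2.64 (2.49 to 2.80). Smooth muscle-like cells had 603 CPM (513 to 705), pericyte-like cells 364 CPM (327 to 405) and endothelial-like cells 308 CPM (303 to 312). Fibroblast-like cells had only 80.1 CPM, with the exception of the Postn type at 642, 718 and 680 CPM in libraries 1, 2 and 4. The similar genes over classes were Meis2 (r 0.958), Mical2 (0.958) and Cachd1 (0.957).

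The endothelial-like average of Igfbp5 hid a division between types. The endocardial-like type had 1487, 1454, 1200 and 1120 CPM in libraries 1 to 4, the Kirrel3-led type 487, 254, 251 and 381 CPM, and the capillary Car4 type 20.8, 12.3, 2.07 and 13.5 CPM. None of the 3 ranges overlapped. Over all cells the endocardial-like type was above the capillary Car4 type by a ratio of 117 (104 to 132) and the Kirrel3-led type by 30.2 (26.7 to 34.4). The venous-like type, in which 21.2% of cells had an Igfbp5 UMI, ranged from 163 to 771 CPM over 3 libraries. Arterial-like cells had 12.5 CPM.

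**Figure D5:**
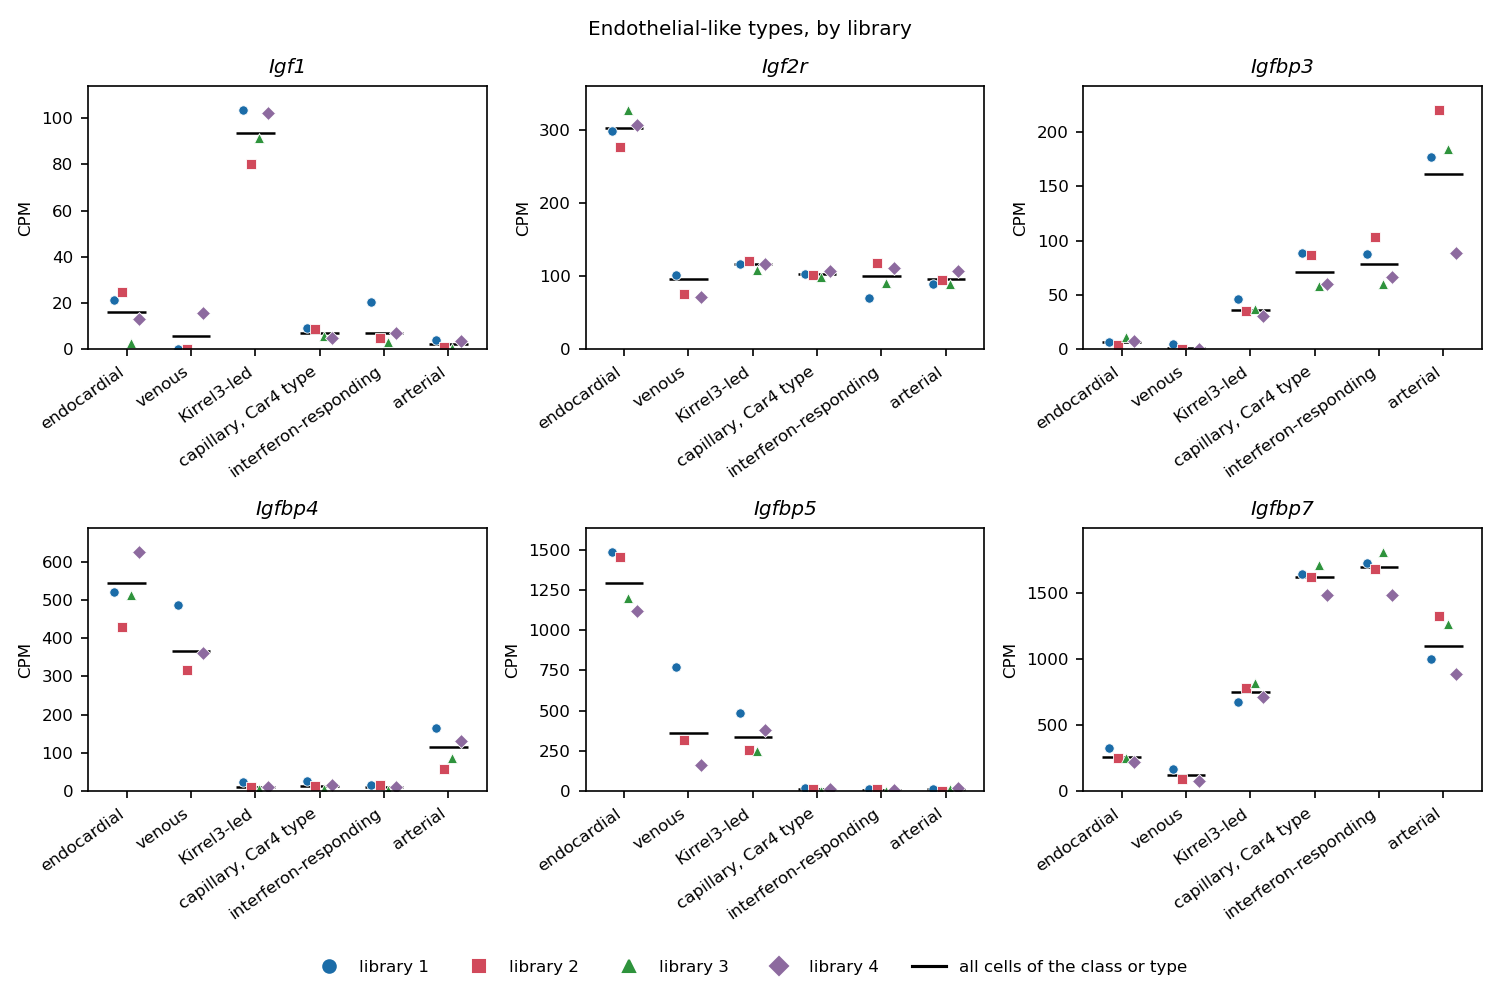
Levels in CPM (vertical axes, from 0) of 6 of the genes in 6 endothelial-like types, with 1 marker per library and a line at the value over all cells of the type. Igfbp4 and Igfbp5 are highest in the endocardial-like type, Igfbp3 in the arterial-like type (161 CPM) and Igfbp7 in the capillary Car4 and interferon-responding types, and Igf1 is found mostly in the Kirrel3-led type (93.3 CPM).

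Igfbp6, which prefers IGF2 to IGF1, had the highest ratio of its first to its second class among the 9 genes over all cells. Epicardial or mesothelial-like cells had 4385, 4142, 3264 and 4843 CPM in libraries 1 to 4, and fibroblast-like cells had 473, 606, 626 and 710 CPM. The ratio over all cells was 7.60 (7.42 to 7.77). Of the 311 epicardial or mesothelial-like cells, 304 (97.7%, 95.4 to 99.1) had UMIs of both Igfbp5 and Igfbp6, and none lacked both. Among fibroblast-like types the Pi16 type had the highest level, 935, 1065, 1001 and 1072 CPM, and its Sema3c-led sub-cluster 1316 CPM. The Cxcl14 and Smoc2 type had 273, 335, 431 and 490 CPM, a ratio of 2.85 (2.76 to 2.94) with no overlap. Outside these types, a sub-cluster of 986 cells led by Lbp and Selenbp1 also had Igfbp6 among its leading genes within the class. The Postn type had 25.7 CPM, so that Igfbp5 and Igfbp6 stood in opposite order in the Postn and Pi16 types. The similar genes over classes were Efna5 (r 0.964), Ppl (0.948) and Ptprd (0.945).

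Igfbp7, a secreted protein of vessel and matrix, was broad outside the immune classes. Fibroblast-like cells had 2560, 2926, 2636 and 2565 CPM in libraries 1 to 4, and Schwann-like cells had 2398 and 2734 CPM in libraries 1 and 4. The values overlap, Schwann-like cells were the higher in library 4, and the ratio was 1.075 (1.005 to 1.152). In the Schwann-like class 6 of the 8 fibroblast markers were also raised, and the part of fibroblast RNA in its value was not tested. Pericyte-like cells had 1552 CPM, smooth muscle-like cells 1283 CPM (1149 to 1428) and endothelial-like cells 1208 CPM (1199 to 1217), the last 2 with overlapping intervals. An Igfbp7 UMI was found in 98.6% of fibroblast-like cells and in 9.84% of B cell-like cells, which read 100.5 CPM in library 4 and 12.9 CPM in library 3. The similar genes over classes were Sparc (r 0.986), a matrix protein gene, Nectin3 (0.979) and Tgfb1i1 (0.977).

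Between endothelial-like types Igfbp7 ran against Igfbp4 and Igfbp5. The capillary Car4 type had 1648, 1620, 1711 and 1487 CPM in libraries 1 to 4, and the endocardial-like type 328, 255, 248 and 219 CPM. That is a ratio of 6.227 (6.002 to 6.460) with no overlap. The venous-like type had 120 CPM (75.7 to 166 by library), the Kirrel3-led type 752 CPM and the arterial-like type 1100 CPM. In fibroblast-like cells the range was narrow, from 1806 CPM in the Pi16 type to 3192 CPM in the Cxcl14 and Smoc2 type. Igfbp7 overlaps Polr2b, which had 5388 UMIs, on the opposite strand.

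Of 33 other genes of the pathway, 30 had at least 10 UMIs. Of these 30, 22 were highest outside the immune classes, against 57.4% of all genes, and 11 had the same highest class in each library, against 18.7%. The 9 that stood at least 2-fold above the next class make up 30.0% of the 30, a share near the 28.9% of all genes. Of the other ligands, Igf2 was highest in endothelial-like cells at 182 CPM (102 to 278 by library), Ins1 had no UMI and Ins2 had 12. The Igf2 value is an average over endothelial-like types. Igf2 was among the leading genes of the Npr3-led endocardial-like sub-cluster (2268 cells), and its level by type was not measured here. The related receptor gene Insr was even, with 114 CPM (81.2 to 156) in its highest class, Schwann-like cells. The growth hormone receptor Ghr was highest in fibroblast-like cells (491 CPM), as was Lrp1 (585 CPM), an endocytic receptor that also binds IGFBP3. Ghr had 438 CPM in the next class, epicardial or mesothelial-like cells, and its highest class was not the same in every library. Lrp2 had 322 CPM in epicardial or mesothelial-like cells and at most 1.04 CPM in any other class. The other binding protein genes were near absent: Igfbp1 had no UMI and Igfbpl1 had 2.

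The protease Pappa, which releases IGFs by cutting IGFBP4, was highest in Schwann-like cells at 518 CPM (445 to 601), 14.9-fold above the next class, while Pappa2 was highest in epicardial or mesothelial-like cells at 24.5 CPM. Its inhibitor Stc2 reached 94.9 CPM (71.3 to 124) in ILC2-like cells, and Stc1 was highest in lymphatic endothelial-like cells at 48.8 CPM. That Stc1 value rested on 26 UMIs and ran from 0 to 88.5 CPM by library. Htra1, a protease of binding proteins and matrix, was highest in pericyte-like cells at 227 CPM. Among adaptors, Irs1 was highest in Schwann-like cells (79.1 CPM, 27 UMIs), next to 61.1 CPM in smooth muscle-like cells. It was low in endothelial-like cells (1.22 CPM). Irs2 had its highest level, 128 CPM, in ILC2-like cells, and Grb14, an inhibitor of the insulin receptor family, was highest in Schwann-like cells (319 CPM). In neutrophil-like cells, where Igf1r was highest, Irs1 had 0.687 CPM and Irs2 30.2 CPM. Low Irs1 was shared by all immune classes, with at most 2.03 CPM, in macrophage-like cells. In the kinase branch, Pik3ca was highest in pericyte-like cells (330 CPM) and Pik3r1 in NK cell-like cells (632 CPM).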

How the data were processed

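The authors deposited 1 joined matrix of UMI counts per gene and cell barcode (10x Genomics 3′ libraries, per the labels), made with Cell Ranger 7.1.0 on the mm10 build, per the submitters' processing notes. The sources used here do not give its strand and intron settings. Barcodes with under 500 UMIs, under 250 genes or over 15% mitochondrial UMIs were left out (821), as were 1316 doublets called by Scrublet within scanpy 1.11.5, run per library. In library 3 the automatic threshold (0.613) marked 0 barcodes, so 0.208, the median of the thresholds in libraries 1, 2 and 4, replaced it. Cells were clustered with leidenalg 0.10.2 (resolution 1, 30 principal components of 2000 genes, 15 neighbours), then again within compartments. The 9 genes, the pathway genes, mitochondrial, ribosomal, haemoglobin and sex-linked genes and the reporter did not enter the clustering.

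Clusters were named where at least 3 markers of a fixed list stood 2-fold above the lower quartile of clusters and neither another list nor the leading genes contradicted the name; otherwise they stayed unnamed. These naming rules were set after the clusters were seen. The members and lists were chosen with earlier results of these data known. Genes named are the 9 members, a fixed pathway list and, per member, the 3 genes with the highest correlation over classes among 8071 genes with 50 CPM or more in a class; leading genes of sub-clusters were named after their values were seen. Some genes that these rules pick are not reported here. Library values were given for at least 20 cells. Since no label maps libraries to samples, no test between groups was run, and class differences have counting intervals only, as cells are not replicates. The interval and ranking code was tested on simulated data. SciPy 1.17.1 gave the intervals and edgeR 4.0.16 the TMM factors. Alternatives were a stricter cell filter (1000 UMIs, 500 genes, 10% mitochondrial), doublets kept, resolution 2, members allowed in clustering, equal weight per cell, thinning to 1000 UMIs, TMM factors and leaving out each library.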

Additional observations from a re-analysis of the deposited data

How the results depend on the processing

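The number of genes highest outside the immune classes was 8 in all 11 alternatives, and without each library in turn it stayed at 8. The number with the same highest class in every library was 5 with the stricter filter, doublets kept, resolution 2 or members allowed in clustering, 6 with thinning and 7 with equal weight per cell or TMM factors; leaving out 1 library gave 5 to 6. The highest class was kept in 11 of 11 alternatives for each gene except Igfbp3, whose highest class became lymphatic endothelial-like with the stricter filter, doublets kept or members allowed. Of 196 recomputed ratios for 18 class or type comparisons, 130 stayed within the counting interval of the reported value, 66 moved outside it and 0 of those with an interval excluding no difference changed direction. Moves over 1.5-fold numbered 7. One was Igf1r in neutrophil-like against Schwann-like cells with TMM factors (log2 ratio 2.15, reported 1.09). Another was Igf1 in the Mfap4 and Osr1 type against the Pi16 type with the stricter filter (2.51, reported 1.85). The other 5 were Igfbp2 in epicardial or mesothelial-like against pericyte-like cells (reported 2.31), which was 0.84 without library 2 (3 UMIs against 1) and 1.65 with equal weight per cell. Without library 1, with thinning and at resolution 2 pericyte-like cells had 0 UMIs, against 8, 2 and 11, so that -0.43, -0.13 and 0.64 are lower bounds taken at a floor of 3 UMIs and do not show a turn of direction. The causes were not tested. No paired analysis was possible because no label ties the 4 libraries to the samples, and for the same reason the alternatives for stroke against control (replicate block, DESeq2, no filter on low counts) were not run. Depth limits the small classes most: in the 67 NK cell-like cells a count of 0 allows up to 10.9 CPM.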

Other observations

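Cells left unnamed by the markers also held UMIs of the 9 genes. A cluster of 19 cells led by the mast cell genes Cpa3, Cma1 and Hdc, under the 50 cells set for a class, had 35 Igf1r UMIs, 557 CPM (388 to 775), close to the neutrophil-like level and without an Igf1 UMI. Of its cells 15 came from library 2. A cluster of 163 cells in the fibroblast compartment was led by Opcml, Igfbp5 and Tmeff2 and unnamed because the mast cell markers Cma1 and Mcpt4 were among its 10 leading genes against the fibroblast-like sub-clusters. It had 1146 CPM of Igfbp5 (1090 to 1205), 868 CPM of Igfbp6 and 341 CPM of Igf1. Another unnamed cluster of 259 cells in that compartment, where all 8 fibroblast markers and all 8 endothelial markers were raised and Fabp4, Cd36 and Flt1 led, had 292 CPM of Igf1 and 163 CPM of Igfbp5; the part of endothelial RNA in these values was not tested. The 33 cardiomyocyte-like cells had 14 Igf1r UMIs (121 CPM, 66.3 to 204), 12 of them in library 2, and 6 Igf1 UMIs. The 48 dendritic-like cells had no Igf1r UMI, which allows up to 6.39 CPM, and 32 Igf2r UMIs (68.1 CPM, 46.6 to 96.2).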
